A study of Mus musculus with 12 samples.

Results

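Upp1 encodes uridine phosphorylase 1, and it was described here together with other genes of nucleoside breakdown and salvage in the mouse colon. The set held 10 genes listed by symbol, of which 9 had a named probe among 19505 named genes on the array: Upp1, Upp2, Cda, Uck2, Xdh, Pnp, Ada, Nt5e and Nt5c1a. Each of the 9 had 1 probe, so the rule of taking the probe with the highest mean made no choice. Tymp was not analysed here because no probe bore its name. The list was drawn up with earlier results of these arrays known, and the contrast that brought Upp1 into it is not stated. The tests on Upp1 and on the other genes of the list therefore describe these arrays and are not independent evidence.

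Colon tissue that the labels call healthy came from male mice aged 12 to 16 weeks, kept under 14 h of light. The double knockout (DKO) lacked IL4i1 and LAO1, the LAO1 knockout and the IL4i1 knockout lacked 1 of these genes each, and the wild type lacked neither. Both genes encode secreted L-amino acid oxidases, and the study asked what lies behind the colonic inflammation of the double knockout. Each genotype had 3 Affymetrix arrays, 12 in all, while the labels say that 4 mice per genotype were chosen, so whether an array is a mouse is not known and p-values cover only the spread among these samples, which may be technical. The mouse strain and the way the alleles were made are not given in the sources used here.

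Uridine phosphorylase splits uridine, reversibly, into uracil and ribose 1-phosphate, and so joins pyrimidine breakdown to sugar metabolism. Purine nucleosides take a parallel route: nucleotidases remove the phosphate, adenosine deaminase makes inosine, purine nucleoside phosphorylase releases the base, and xanthine dehydrogenase oxidises the base to urate. The gut epithelium is rich in these enzymes, and cytokines of inflammation are known to raise uridine phosphorylase in cultured cells.

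The windows of 250 bases before the annotated start of Upp1 and of Gbp2, one of the 6 genes whose array pattern was most like that of Upp1, are shown because one of the motifs described here lies in each. They are from RefSeq (GRCm38.p6), plus strand: chr11:9117758-9118007 for Upp1 and chr3:142620413-142620662 for Gbp2. Capitals mark the motifs, of which none overlap in these windows.
Upp1: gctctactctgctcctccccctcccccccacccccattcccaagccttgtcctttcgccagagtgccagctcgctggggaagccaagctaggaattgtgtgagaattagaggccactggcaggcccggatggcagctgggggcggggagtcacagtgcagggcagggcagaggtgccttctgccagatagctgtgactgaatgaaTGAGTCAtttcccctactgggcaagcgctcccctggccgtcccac
Gbp2: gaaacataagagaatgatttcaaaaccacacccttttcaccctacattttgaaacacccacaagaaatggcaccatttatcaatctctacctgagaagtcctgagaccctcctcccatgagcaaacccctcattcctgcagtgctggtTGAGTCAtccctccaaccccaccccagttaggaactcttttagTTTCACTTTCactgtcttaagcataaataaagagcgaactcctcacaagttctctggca

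The motifs described here, searched on both strands, were GAAA, any 2 bases and GAAA again (ISRE, bound by interferon regulatory factors) and TGANTCA (AP-1, bound by Fos and Jun proteins). The Upp1 window held AP-1, beginning 45 bases before the start, and the Gbp2 window ISRE at 59 and AP-1 at 102 bases. Of 32851 RefSeq windows of the same length, 2.98% held ISRE and 6.75% AP-1. Upp1 has 3 such windows, 2 of them with AP-1 and none with ISRE. Among the windows of the other listed genes, none of those of Upp2, Tymp, Cda, Uck2, Ada, Nt5c1a, Nt5e and Pnp held either motif. Of the other genes most like Upp1, the windows of Psmb8, AW112010, H2-D1 and Lap3 held neither, and Ido1 was not analysed here, nor was Xdh. A match is a run of letters and says nothing of binding.

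The deposited values are log2 expression values from 1.72 to 19.93, with array medians of 5.42 to 5.49. A difference between groups is therefore a log2 difference, and a log2 difference of 1 is a 2-fold change. The tests were limma's, in 1 fit over the 12 arrays, with p-values adjusted over all 22206 probes and a threshold of 0.05. DKO replicate 2 stood apart: the mean of 5 pancreatic acinar genes lay at 17.55 there and at 3.98 to 4.97 on the other 11 arrays. IL4i1 knockout replicate 2 lay farthest out on the first principal component, at 68.94, against -40.03 to 20.75 elsewhere. The mean of 6 colon epithelium markers was 14.94 to 16.23 over the 12 arrays, far above the array medians. Lao1, the only targeted gene with a named probe, lay between 2.64 and 3.56 on all 12 arrays, wild type included, and so checked no label.

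Upp1 was highest in the double knockout. Its log2 values were 10.63, 6.55 and 10.65 in the double knockout, 4.96, 4.96 and 4.42 in LAO1 knockouts, 4.47, 4.5 and 5.09 in IL4i1 knockouts and 5.23, 5.90 and 6.33 in wild type. Every double knockout array lay above every array of the other genotypes, but replicate 2, the array with pancreatic transcripts, lay just above the highest wild type array. Both single knockouts lay wholly below wild type, and they overlapped each other. The means were 9.28 ± 2.36 in the double knockout, 4.78 ± 0.31 in LAO1 knockouts, 4.69 ± 0.35 in IL4i1 knockouts and 5.82 ± 0.55 in wild type (SD, n = 3 each), so wild type came next after the double knockout.

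In the double knockout Upp1 stood 4.59 above the IL4i1 knockout (SE 0.80, a 24.1-fold difference, limma adjusted p = 0.0219). Against the LAO1 knockout the difference was 4.5 (SE 0.80, 22.6-fold), just short of the threshold (limma adjusted p = 0.0526). Against wild type it was 3.46 (SE 0.80, 11-fold, limma adjusted p = 0.299). The difference from wild type was -1.04 in the LAO1 knockout (95% interval -2.77 to 0.69, limma adjusted p = 1) and -1.13 in the IL4i1 knockout (95% interval -2.86 to 0.59, limma adjusted p = 0.749). The single knockout means, 4.78 and 4.69, lay near the 40th percentile of probe means (4.67) and below every array median. Values this low may be near background, so the sizes of the differences from the single knockouts are uncertain.

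The interaction, the double knockout minus both single knockouts plus wild type, was 5.63 for Upp1 (SE 1.13, limma adjusted p = 0.085). Upp1 was the only measured gene of the set in which the double knockout lay above wild type, and both single knockouts below it, without overlap. Over all probes 26 of 22206 had that pattern, 0.117%. The pattern was defined from the Upp1 values themselves, so this share describes Upp1 and is no test of it. Without DKO replicate 2 the Upp1 differences were 4.82 against wild type (adjusted p = 5.79e-05), 5.86 against the LAO1 knockout (5.6e-06) and 6.99 for the interaction (2.28e-05), all past limma's threshold. That array was the double knockout array where Upp1 was lowest, at 6.55. Leaving out other single arrays gave differences down to 2.77, 3.81 and 4.94, in the same order. Over all alternative settings they passed in 2 of 20, 5 of 20 and 3 of 19, with a limma adjusted p of up to 0.885, 0.342 and 0.289. The call against the IL4i1 knockout ended without DKO replicate 1 or 3 or without any of the 3 IL4i1 knockout arrays, with differences of 3.9 to 4.79 and an adjusted p of 0.0658 to 0.12. Without DKO replicate 2 that difference was 5.95 (limma adjusted p = 4.63e-06).

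**Figure D1:**
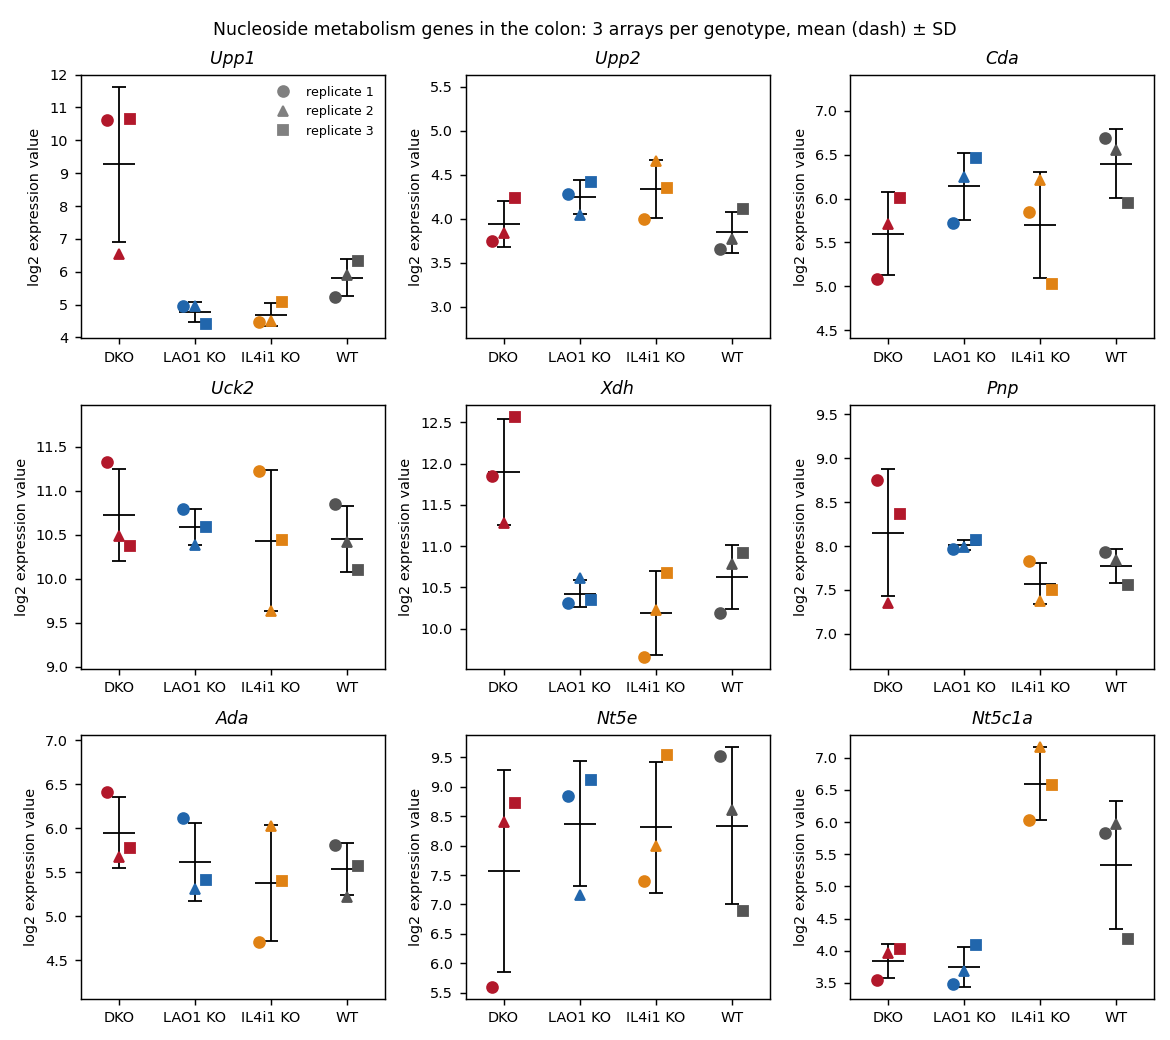
Log2 expression value (y axis) of the 9 measured genes on each array, by genotype (x axis: DKO, LAO1 KO, IL4i1 KO, WT). Symbols are the 3 replicates, dashes the mean and bars the SD; the Upp1 panel shows 2 DKO arrays near 10.6 and replicate 2 at 6.55, and the Nt5c1a panel shows DKO and LAO1 KO together below IL4i1 KO.

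Upp2, the second uridine phosphorylase, known mainly from liver, stayed near the bottom of the scale. Its values were 3.75, 3.84 and 4.24 in the double knockout, 4.28, 4.04 and 4.42 in LAO1 knockouts, 4, 4.66 and 4.35 in IL4i1 knockouts and 3.66, 3.77 and 4.11 in wild type. All groups overlapped wild type, and the double knockout differed from it by 0.10 (95% interval -0.40 to 0.59, limma adjusted p = 0.957).

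Cda, cytidine deaminase, turns cytidine into uridine and so feeds uridine phosphorylase. It was at 5.08, 5.71 and 6.01 in the double knockout, 5.72, 6.24 and 6.46 in LAO1 knockouts, 5.85, 6.21 and 5.03 in IL4i1 knockouts and 6.69, 6.55 and 5.95 in wild type. The double knockout lay mostly below wild type and overlapped it at 1 array, a difference of -0.80 (SE 0.34, limma adjusted p = 0.632).

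Uck2, uridine-cytidine kinase 2, takes uridine the other way, into nucleotides. It was at 11.33, 10.49 and 10.37 in the double knockout, 10.79, 10.38 and 10.59 in LAO1 knockouts, 11.23, 9.63 and 10.44 in IL4i1 knockouts and 10.85, 10.42 and 10.10 in wild type. These overlapped throughout. The difference of the double knockout from wild type was 0.27 (95% interval -0.52 to 1.07, limma adjusted p = 0.913).

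On the purine side Xdh, the last enzyme before urate, was highest in the double knockout. Its values were 11.85, 11.28 and 12.57 in the double knockout, 10.31, 10.61 and 10.35 in LAO1 knockouts, 9.66, 10.23 and 10.67 in IL4i1 knockouts and 10.19, 10.78 and 10.92 in wild type. Every double knockout array lay above every array of the other 3 genotypes, which overlapped one another. Xdh rose in the double knockout relative to the IL4i1 knockout by 1.71 (SE 0.33, 3.28-fold, limma adjusted p = 0.0425). The differences of 1.48 from the LAO1 knockout (adjusted p = 0.177), 1.27 from wild type (adjusted p = 0.387) and 1.92 in the interaction (adjusted p = 0.206) did not pass limma's threshold.

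The Xdh call was narrow. It held in 8 of 20 alternative settings, in which the difference ranged from 1.38 to 2.04 and the adjusted p from 0.0132 to 0.267. Without DKO replicate 1 or 3 or IL4i1 knockout replicate 1 or 2 it was lost, at an adjusted p of 0.113 to 0.156. Leaving out any LAO1 knockout array, wild type replicate 2 or wild type replicate 3, none of which enters the difference, also ended it, at 0.0582 to 0.0741.

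Pnp releases hypoxanthine and guanine from their nucleosides. It was at 8.75, 7.35 and 8.36 in the double knockout, 7.97, 7.99 and 8.07 in LAO1 knockouts, 7.83, 7.38 and 7.50 in IL4i1 knockouts and 7.93, 7.84 and 7.56 in wild type. The LAO1 knockout lay just above wild type without overlap (difference 0.23, limma adjusted p = 1), while the double knockout spread across all the other groups (0.38 from wild type, adjusted p = 0.826). Pnp2, a near-identical copy, has a probe of its own, and whether the probes can tell the copies apart is not known.

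Ada, adenosine deaminase, was at 6.41, 5.67 and 5.77 in the double knockout, 6.12, 5.31 and 5.41 in LAO1 knockouts, 4.71, 6.03 and 5.4 in IL4i1 knockouts and 5.81, 5.22 and 5.57 in wild type. All groups overlapped, and the difference of the double knockout from wild type was 0.42 (95% interval -0.31 to 1.14, limma adjusted p = 0.834).

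Nt5e (CD73) makes adenosine from AMP on the cell surface. It was at 5.60, 8.40 and 8.72 in the double knockout, 8.84, 7.16 and 9.12 in LAO1 knockouts, 7.40, 7.99 and 9.55 in IL4i1 knockouts and 9.53, 8.60 and 6.89 in wild type. Its SDs of 1.06 to 1.72 within genotypes were the largest of the set except for Upp1 in the double knockout. The groups all overlapped, and the interval for the double knockout against wild type was wide (-2.62 to 1.09, limma adjusted p = 0.884).

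Nt5c1a, a cytosolic nucleotidase for AMP known mainly from muscle, followed a pattern of its own. It was at 3.54, 3.96 and 4.02 in the double knockout, 3.48, 3.68 and 4.09 in LAO1 knockouts, 6.04, 7.17 and 6.58 in IL4i1 knockouts and 5.83, 5.97 and 4.18 in wild type. Both genotypes without LAO1 lay together at the bottom, below every array of the other 2, and wild type replicate 3 came close to them. Nt5c1a was the only measured gene of the set with that arrangement, which 25 of 22206 probes had (0.113%). The arrangement is the one Nt5c1a itself showed, so the share describes Nt5c1a and is no test of it.

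Nt5c1a fell in the double knockout relative to the IL4i1 knockout, with a log2 difference of -2.76 (SE 0.42, limma adjusted p = 0.00928). Between the LAO1 knockout and the IL4i1 knockout, a comparison added after these values were seen, the difference was -2.85 (SE 0.42), which missed limma's threshold (adjusted p = 0.0668). Against wild type the differences were -1.49 in the double knockout (adjusted p = 0.411), -1.58 in the LAO1 knockout (adjusted p = 1) and 1.27 in the IL4i1 knockout (adjusted p = 0.533). The double knockout and the LAO1 knockout differed by 0.09 (95% interval -0.81 to 0.99). Their means, 3.84 and 3.75, lay below the 40th percentile of probe means (4.67) and below every array median. Values this low may be near background, so the sizes of the differences from the IL4i1 knockout and wild type are uncertain. The call against the IL4i1 knockout held in 17 of 20 alternative settings, and ended without DKO replicate 1 (adjusted p = 0.0533), without IL4i1 knockout replicate 2 (0.0501) and without both replicates 2 (0.0507).

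**Figure D2:**
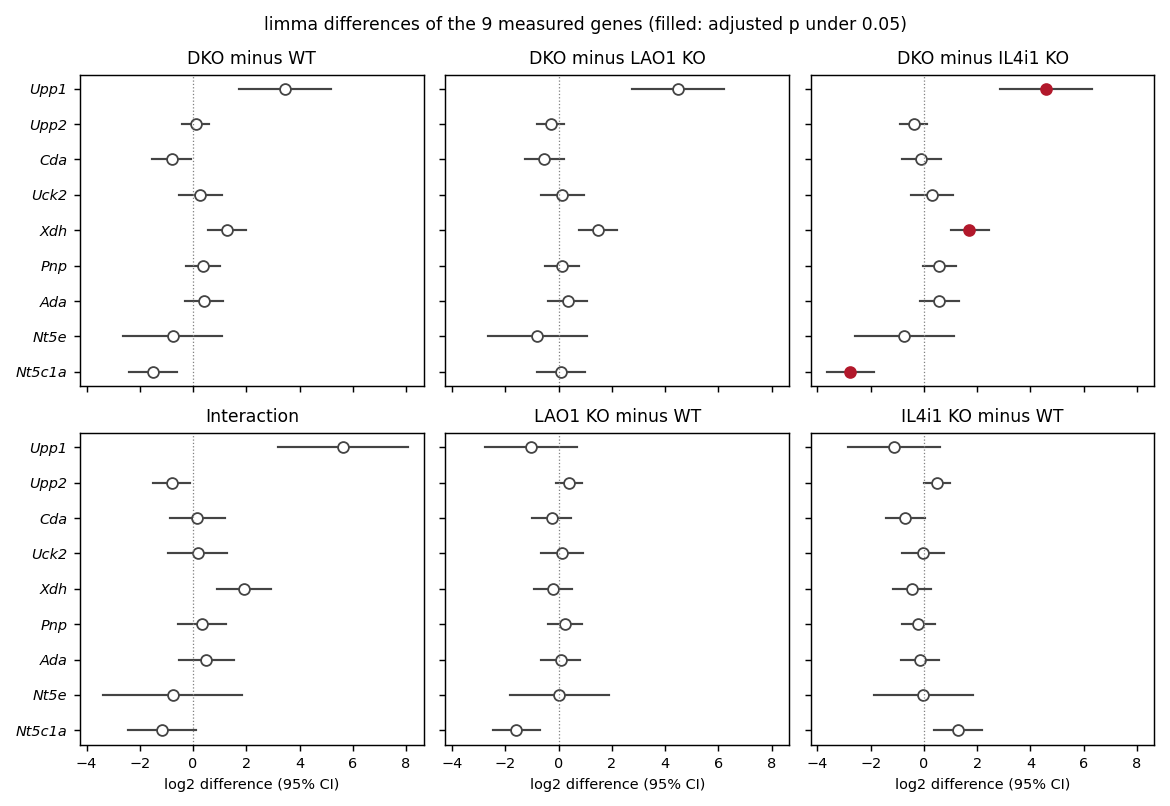
Log2 difference (x axis, with 95% confidence interval) of the 9 measured genes (y axis) in 6 comparisons, from limma. Filled points passed an adjusted p of 0.05: Upp1 and Xdh higher and Nt5c1a lower in DKO against IL4i1 KO.

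Counted over the set, 3 of 9 measured genes passed in the double knockout relative to the IL4i1 knockout (2 higher, 1 lower), where 0.477% of all probes passed (0.387% higher, 0.0901% lower). The same 3 genes had an unadjusted p under 0.05 (9.83% of probes) and groups that did not overlap there, against 6.05% of all probes higher and 6.62% lower. In the plot of differences the other 6 genes lie between -0.80 and 0.58 in the 6 comparisons, with the widest intervals for Nt5e. The median difference of the 9 genes was 0.30, and that of all probes -0.02. The list was chosen with earlier results of these arrays known, so counts over the set describe it and are no test of it.

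No gene of the set (0 of 9) passed limma's threshold in the other 5 designed comparisons. Against wild type in the double knockout 4 had an unadjusted p under 0.05 (Upp1, Xdh, Nt5c1a and Cda), where 0.0225% of probes passed and 7.44% had such a p. Groups did not overlap for Upp1 and Xdh above wild type (5.68% of probes) and for Nt5c1a below it (5.95%). In the double knockout against the LAO1 knockout 2 had an unadjusted p under 0.05, Upp1 and Xdh, where 0.14% of probes passed and 7.15% had such a p; the same 2 lay above without overlap, against 6.25% of probes.

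In the LAO1 knockout against wild type, where 0.0045% of probes passed, Nt5c1a alone had an unadjusted p under 0.05 (3.02% of probes). Pnp lay above wild type and Upp1 and Nt5c1a below it without overlap, against 4.67% and 3.86% of probes. In the IL4i1 knockout against wild type, where 0.0135% passed, Nt5c1a was again the only gene of the set with an unadjusted p under 0.05 (7.58% of probes). It lay above wild type and Upp1 below it without overlap, against 5.97% and 5.16% of probes. In the interaction, where 0.23% passed, Upp1, Upp2 and Xdh had an unadjusted p under 0.05 (7.12% of probes).

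The 6 genes most like Upp1 over the 12 arrays, by Pearson r among 9998 candidate probes, were Psmb8 (0.983), AW112010 (0.96), H2-D1 (0.957), Gbp2 (0.957), Ido1 (0.95) and Lap3 (0.95). Psmb8 is a subunit of the immunoproteasome, H2-D1 an MHC class I heavy chain, Gbp2 a guanylate-binding GTPase, Ido1 a tryptophan-degrading enzyme, AW112010 an interferon-inducible transcript and Lap3 a leucine aminopeptidase. The double knockout arrays set much of these r values. Over the 9 other arrays r was 0.887 for Psmb8, 0.907 for Gbp2, 0.804 for Ido1, 0.719 for Lap3, 0.71 for AW112010 and 0.685 for H2-D1. The genes were chosen on the same arrays, so these values are a description.

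Psmb8 was at 10.79, 8.5 and 10.81 in the double knockout, 7.51, 7.06 and 6.74 in LAO1 knockouts, 6.73, 6.48 and 6.83 in IL4i1 knockouts and 7.21, 7.45 and 8.49 in wild type. Gbp2 was at 11.84, 9.60 and 11.55 in the double knockout, 7.32, 6.77 and 5.53 in LAO1 knockouts, 6.57, 6.67 and 6.55 in IL4i1 knockouts and 6.79, 8.07 and 8.94 in wild type. As with Upp1, the double knockout lay above all other groups in both, and replicate 2 was its lowest array. For Psmb8 that array lay only narrowly above wild type replicate 3 (8.5 against 8.49). Ido1 spread more widely, at 14.85, 7.88 and 11.14 in the double knockout, 4.48, 4.37 and 3.85 in LAO1 knockouts, 4.36, 4.72 and 5.01 in IL4i1 knockouts and 3.40, 5.93 and 7.91 in wild type, and it overlapped wild type.

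Among the set itself, Xdh was the most like Upp1, with r = 0.93 over 12 arrays and 0.752 over the 9 that were not double knockout. Pnp had 0.654 and -0.191 and Ada 0.484 and 0.037. The other 5 measured genes lay between -0.45 and 0.237 over 12 arrays.

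**Figure D3:**
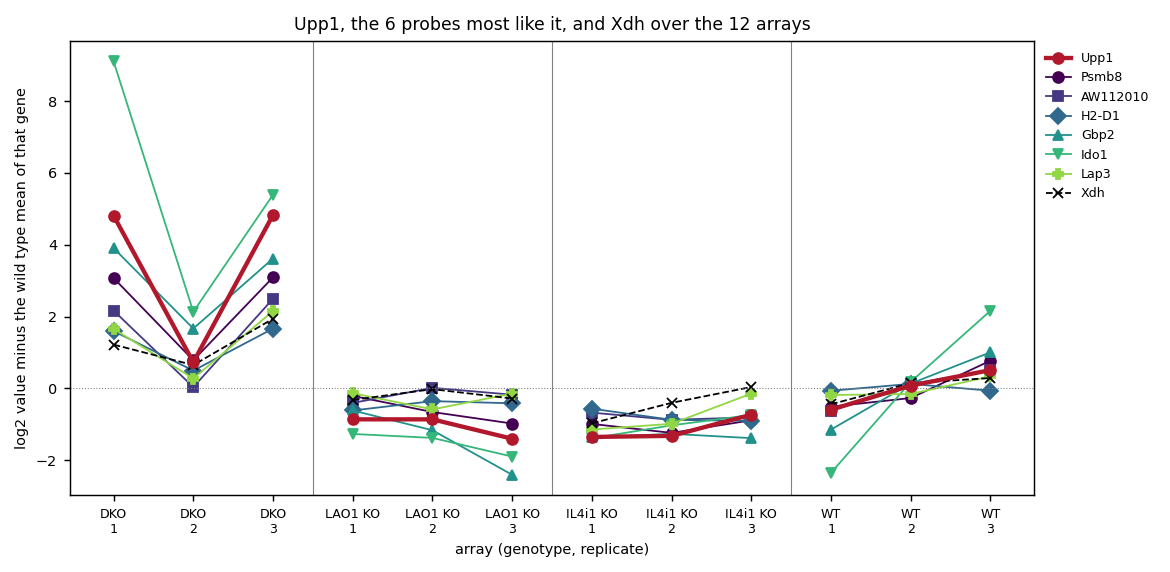
Log2 value minus the wild type mean of that gene (y axis) for Upp1, the 6 genes most like it and Xdh (dashed) on each of the 12 arrays (x axis, lines join arrays of 1 genotype only for legibility). Upp1 lies 4.81, 0.73 and 4.83 above its wild type mean in the 3 DKO arrays and below it in all single knockout arrays.

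Marker lists of responses and cell types were set beside Upp1 on the same arrays. The mean of 5 measured interferon gamma targets, Gbp2 among them, was 12.20, 9.82 and 10.85 in the double knockout, 6.42 to 7.64 in the LAO1 knockout, 6.75 to 6.89 in the IL4i1 knockout, and 7.32 to 9.13 in wild type. It was lowest in DKO replicate 2 among the double knockouts, as were Upp1 and the mean of the proliferation markers given below. In DKO replicates 1 and 3 it was 12.20 and 10.85, where Upp1 was 10.63 and 10.65. In the double knockout 4 of the 5 genes passed against the IL4i1 knockout (0.477% of all probes) and 3 of 5 against the LAO1 knockout (0.14%), all higher. In the interaction 4 of 5 passed (0.23%). Against wild type 0 of 5 passed limma's threshold (0.0225%), and all 5 had an unadjusted p under 0.05 (7.44%). Its part in the Upp1 difference was not tested.

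Absorptive colonocyte markers (6 of 6 measured) averaged 12.73 to 13.24 in the double knockout, 13.71 to 14.56 in the LAO1 knockout, 13.21 to 15.41 in the IL4i1 knockout and 14.15 to 14.74 in wild type. Goblet cell markers (6 of 6) averaged 16.51 to 17.24 in the double knockout, 17.37 to 17.75 in the LAO1 knockout, 16.54 to 17.57 in the IL4i1 knockout and 17.37 to 17.55 in wild type. Both lists were lower in every double knockout array than in any wild type array, and the double knockout overlapped the IL4i1 knockout in both. Of the goblet markers, Muc2 (19.91 to 19.93) and Clca1 (19.66 to 19.93) lay at or near the highest value of these arrays, 19.93. Values at this ceiling may hide a change.

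Proliferation markers (5 of 6 measured) averaged 11.83, 10.23 and 10.96 in the double knockout, 10.04 to 10.11 in the LAO1 knockout, 9.49 to 9.82 in the IL4i1 knockout and 9.85 to 10.26 in wild type. Macrophage and monocyte markers (5 of 6) averaged 8.17 to 8.72 in the double knockout, 7.55 to 8.16 in the LAO1 knockout, 6.62 to 7.63 in the IL4i1 knockout and 7.22 to 8.6 in wild type. T cell markers (6 of 6) averaged 5.55 to 6.2 in the double knockout, 5.16 to 5.34 in the LAO1 knockout, 5.08 to 5.52 in the IL4i1 knockout and 5.27 to 5.54 in wild type. In all 3 lists the double knockout lay above both single knockouts without overlap, narrowly so in macrophage and T cell markers. The T cell markers did not move together. Gzma (double knockout mean 6.28, LAO1 knockout 5.22, IL4i1 knockout 4.76), Cd3e, Cd8a and Cd2 averaged above both single knockouts. Cd3g averaged below both (3.86 against 3.95 and 3.9), and Cd4 lay between them (8.7 against 8.51 and 8.76). Neutrophil markers (5 of 6) averaged 5.61 in DKO replicate 1 and 4.24 and 4.26 in the other 2 double knockout arrays. They averaged 3.94 to 4.28 in the LAO1 knockout, 4.06 to 4.37 in the IL4i1 knockout and 3.82 to 4.44 in wild type.

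In these 6 lists of cell types 0 genes passed limma's threshold in any of the 6 designed comparisons. Of the other cell type lists, 1 of 6 colon epithelium markers passed, higher in the double knockout than in the LAO1 knockout (0.14% of all probes passed). In the double knockout relative to the IL4i1 knockout, where Upp1 and Xdh passed, an unadjusted p under 0.05 was found for 4 of 6 absorptive, 0 of 6 goblet, 5 of 5 proliferation, 3 of 5 macrophage and monocyte, 2 of 6 T cell and 1 of 5 neutrophil markers, against 9.83% of all probes. In the other lists it was found for 3 of 6 smooth muscle, 1 of 6 colon epithelium and 1 of 5 B and plasma cell markers. For endothelium (6 markers), fibroblasts (5) and pancreatic acinar cells (5) it was found for 0. In bulk tissue, fewer cells of a type and less RNA per cell cannot be told apart, and the part of these lists in the Upp1 and Xdh differences was not tested.

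**Figure D4:**
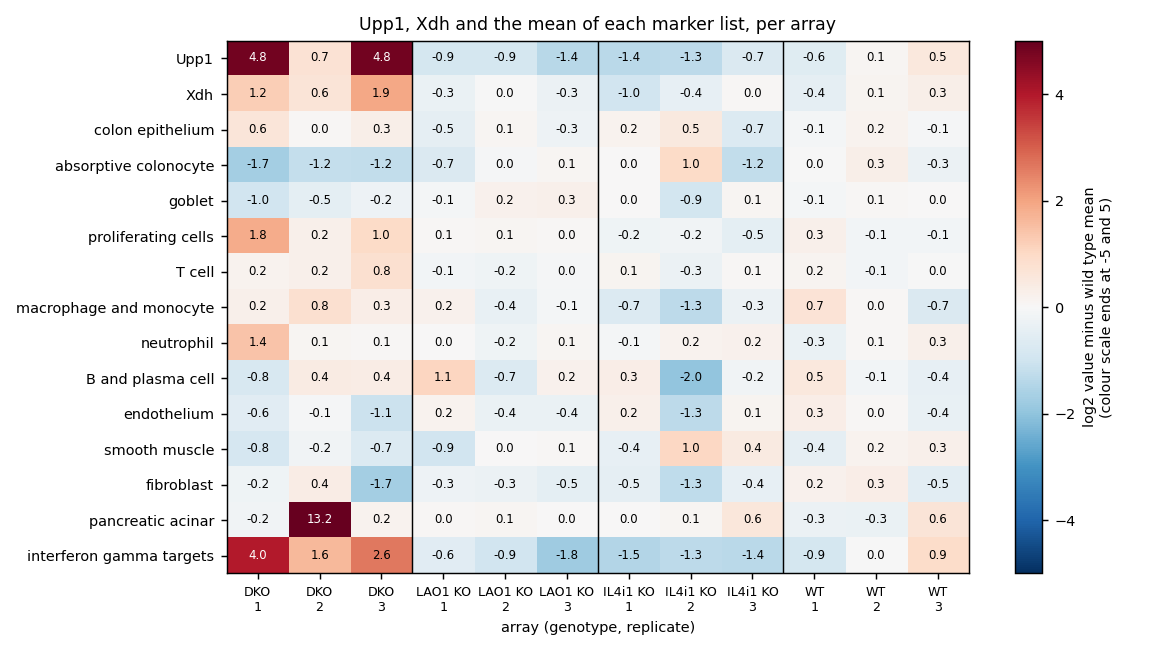
Log2 value minus the wild type mean for Upp1, Xdh and the mean of each of 13 marker lists (rows) on each of the 12 arrays (columns); the colour scale ends at -5 and 5. Pancreatic acinar genes stand 13.2 above in DKO replicate 2 alone, and interferon gamma targets 4.0, 1.6 and 2.6 above in the 3 DKO arrays.

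Beyond the set, 97 of 108 listed genes of 10 lists of nucleotide metabolism were measured. Between the double and the IL4i1 knockout 1 of the 97 passed, Samhd1 (0.477% of all probes passed), and it was also the only 1 to pass in the interaction (0.23% of probes); in the other 4 designed comparisons 0 passed limma's threshold, and the shares at an unadjusted p under 0.05 lay near those of all probes. They were 10.3% (10 genes) in the double knockout against wild type, beside 7.44% of probes, 2.06% (2 genes) in the LAO1 knockout against wild type, beside 3.02%, and 11.3% (11 genes) in the IL4i1 knockout against wild type, beside 7.58%. They were 6.19% (6 genes) in the double knockout against the LAO1 knockout, beside 7.15%, 7.22% (7 genes) against the IL4i1 knockout, beside 9.83%, and 6.19% (6 genes) in the interaction, beside 7.12%. Samhd1 breaks deoxynucleotides down to nucleosides. It was at 13.34, 12.58 and 13.42 in the double knockout, 11.68, 10.77 and 11.18 in LAO1 knockouts, 11.17, 8.99 and 10.80 in IL4i1 knockouts and 12.57, 11.80 and 12.15 in wild type.

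The double knockout arrays of Samhd1 all lay above wild type, narrowly in replicate 2 (12.58 against 12.57 in wild type replicate 1), and both single knockouts lay wholly below it, as for Upp1. Against the IL4i1 knockout it rose by 2.79 (SE 0.47, 6.93-fold, limma adjusted p = 0.017), and the interaction was 3.76 (SE 0.66, adjusted p = 0.0364). Against wild type the difference was 0.94 (adjusted p = 0.706). The interaction call held in 11 of 19 alternative settings.

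Among 13 enzymes of uridine and pyrimidine salvage, Cda and Uck2 included, 0 passed in any of the 6 comparisons. The closest in the double knockout relative to the LAO1 knockout was Cmpk2, a mitochondrial kinase for UMP and CMP, at 6.26, 6.31 and 6.01 in the double knockout, 5.32, 5.34 and 5.44 in LAO1 knockouts, 5.82, 5.92 and 5.5 in IL4i1 knockouts and 6.04, 6.05 and 5.95 in wild type (difference 0.83, limma adjusted p = 0.162). Tk1, thymidine kinase, a gene of dividing cells, was at 5.27, 5.53 and 5.21 in the double knockout and 4.53, 4.78 and 4.80 in wild type (0.63, limma adjusted p = 0.503). Dctd, which deaminates dCMP, differed from wild type by 1.24 in the double knockout, 0.80 in LAO1 knockouts and 1.60 in IL4i1 knockouts (limma adjusted p = 0.632, 1 and 0.533).

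Of the de novo synthesis lists, Ctps, CTP synthase, differed from wild type by 0.78 in the double knockout (limma adjusted p = 0.541), and Gart, of purine synthesis, by 0.73 (limma adjusted p = 0.577). The 8 pyrimidine synthesis genes had a median difference of 0.52 there and the 11 purine synthesis genes 0.35, beside 0 for all probes. The 7 nucleoside transporters were all measured and 0 passed, with a median of -0.20 in the double knockout against wild type; Slc29a2, an equilibrative carrier, was the only 1 with an unadjusted p under 0.05 in the double knockout relative to the IL4i1 knockout (-0.63, limma adjusted p = 0.461). Of adenosine and nucleotide receptors 9 of 14 were measured, and 0 passed or had an unadjusted p under 0.05 in any comparison. Of ectonucleotidases and phosphatases 14 of 17 were measured, and 0 passed, with a median of -0.08 in the double knockout against wild type. Among ribose phosphate genes, which use the sugar that Upp1 releases, 8 of 9 were measured and 0 passed, with a median of 0.01 there. The median over the 97 genes was 0 in that comparison, as it was over all probes.

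Nt5c1a and Lao1 both lie on chromosome 4, with 51 protein-coding genes between them in the RefSeq gene table. Of the 25 protein-coding genes on each side of Nt5c1a, 41 of 50 were measured. Between the double and the IL4i1 knockout 2 of these passed, both lower, where 0.0901% of all probes passed as lower: Rhbdl2, a rhomboid protease (difference -3.04, SE 0.32, limma adjusted p = 0.000701), and Utp11, a ribosome assembly factor (-1.26, SE 0.24, adjusted p = 0.0357). Rhbdl2 was at 6.06, 6.47 and 6.65 in the double knockout, 6.97, 6.07 and 6.98 in LAO1 knockouts, 8.90, 9.88 and 9.51 in IL4i1 knockouts and 8.67, 8.29 and 7.94 in wild type. As for Nt5c1a, both genotypes without LAO1 lay wholly below the other 2.

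Rhbdl2 also passed in the LAO1 knockout against the IL4i1 knockout (-2.76, SE 0.32, limma adjusted p = 0.0168), where 0.0045% of probes did. Against wild type its differences were -1.91 in the double knockout (adjusted p = 0.0744) and -1.63 in the LAO1 knockout (adjusted p = 0.84). Utp11 was at 7.23, 7.18 and 7.26 in the double knockout, 7.93, 7.99 and 7.85 in LAO1 knockouts, 8.42, 8.24 and 8.79 in IL4i1 knockouts and 8.69, 8.47 and 7.79 in wild type, so the LAO1 knockout overlapped wild type. These neighbours were looked up after the Nt5c1a values were seen. The alleles of the genotypes and the chromosome around them were not sequenced here, so whether place on the chromosome bears on these values was not tested.

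**Figure D5:**
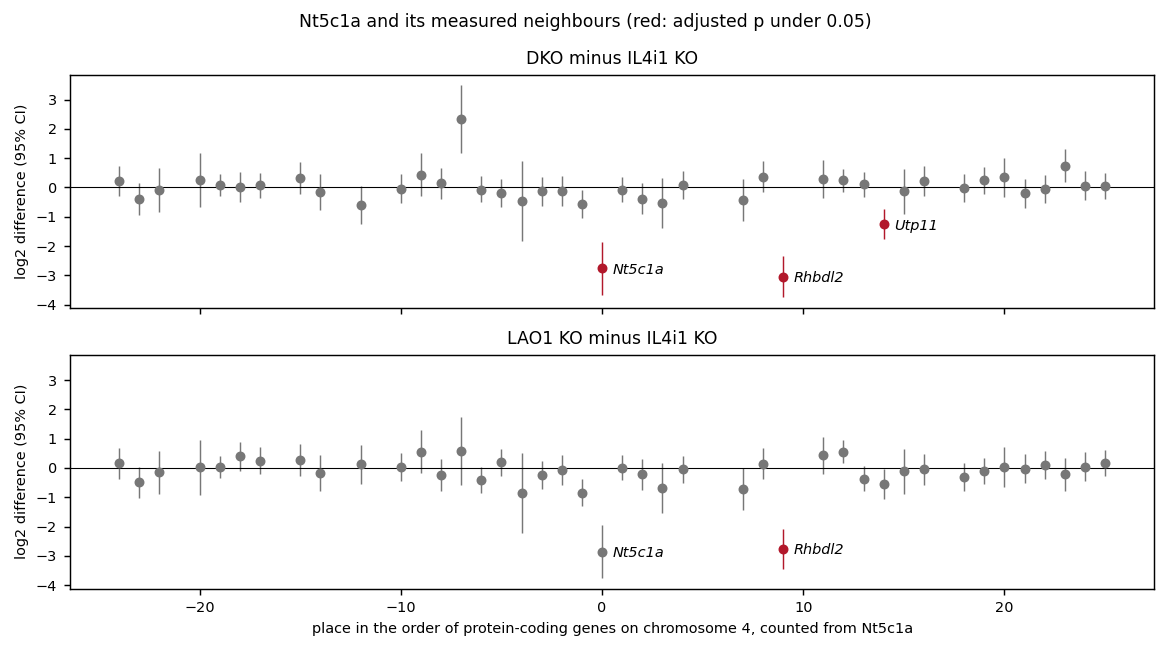
Log2 difference with 95% confidence interval (y axis) of Nt5c1a and its measured neighbours, by place in the order of protein-coding genes on chromosome 4 (x axis, Nt5c1a at 0). In both panels (DKO minus IL4i1 KO, above, and LAO1 KO minus IL4i1 KO, below) Nt5c1a and Rhbdl2 lie lowest, and red points passed an adjusted p of 0.05.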

How the data were processed

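Colon RNA of 4 genotypes was measured on 12 arrays, 3 per genotype, grouped by the sample labels. Per the labels' protocols, 6 µg of total RNA was labelled with biotin. The authors deposited log2 expression values for 22206 probes; Transcriptome Analysis Console is named in the submitters' processing notes without a version, and the summarisation and normalization are not stated. Probe names came from the platform annotation: 19572 probes had 1 symbol, 0 several and 2634 none.

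The values were used as deposited and tested with lmFit and eBayes of limma 3.58.1 (R 4.3.3), a mean per genotype, 8 residual degrees of freedom, Benjamini-Hochberg over all probes, threshold 0.05. The fit was tested on simulated data. The number of arrays limits the precision. Named genes were all members, the 6 probes most correlated with Upp1 among those above the median mean, and from each list the genes past the threshold or the 2 with the smallest p, of which a part is printed. The members and lists were chosen with earlier results of these data known. Python 3.11.15 with matplotlib 3.10.9 drew the figures. Alternatives were an intensity trend, a robust prior, only the compared arrays, quantile normalization, a filter at the 40th percentile, array weights, a replicate block and leaving out arrays. Replicate numbers were shared between genotypes, and whether they pair the arrays was checked. A further motif searched in the promoter windows is not reported here.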

Additional observations from a re-analysis of the deposited data

Results flagged for a closer look

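The differences of Upp1 had opposite signs for a gene lost alone and for the same gene lost beside the other. Loss of LAO1 gave 4.59 with IL4i1 already lost (double knockout against IL4i1 knockout) and -1.04 in mice with IL4i1 (LAO1 knockout against wild type). Loss of IL4i1 gave 4.5 with LAO1 already lost (double knockout against LAO1 knockout) and -1.13 in mice with LAO1 (IL4i1 knockout against wild type). Upp1 was listed here because the groups did not overlap in any of these 4 differences, so this is no test of it. The shares of all probes without overlap in the same direction were, in the same order, 6.05%, 3.86%, 6.25% and 5.16%. Neither single loss passed limma's threshold against wild type (adjusted p = 1 for LAO1 and 0.749 for IL4i1), and both 95% intervals included 0. Both single knockout means lay low on the scale, below every array median. The test of the difference itself, the interaction, missed limma's threshold (adjusted p = 0.085).

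Samhd1 was noted because its interaction, 3.76 on the log2 scale, passed limma's threshold (adjusted p = 0.0364). In that fit its 2 single losses and the double loss did not sum on the log2 scale. The call held in 11 of 19 alternative settings, with a limma adjusted p of up to 0.127.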

How the results depend on the processing

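The labels do not say whether an array is a mouse, and 3 arrays per genotype set the precision. In all, 155 results gave 3057 values under 20 alternative settings: 33 lost and 19 gained the threshold and 50 changed sign. The check showed no clear pairing of the arrays by replicate number. Of 18 same-numbered pairs 7 correlated over 0.1, from -0.142 to 0.218, and 5 of 12 arrays correlated best with their own number. No chance level was computed for these counts, so pairing is not excluded. With the replicate block, called probes numbered 6 in the double knockout against wild type, 43 against the LAO1 knockout, 166 against the IL4i1 knockout and, for the interaction, 60, against 5, 31, 106 and 51 without it. Genes of the set past the threshold remained at 0, 0, 3 and 0 in number; Samhd1 passed against the LAO1 knockout (adjusted p = 0.0276).

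Genes of the set past the threshold in the double knockout relative to the IL4i1 knockout numbered 3 with an intensity trend, without dim probes and with the block, 2 with a robust prior (Upp1 lost, adjusted p = 0.0981), quantile normalization or array weights (Xdh lost), and 1 with only the compared arrays (Nt5c1a kept). Leaving out 1 array gave 0 to 3; it was 0 without DKO replicate 1 or IL4i1 knockout replicate 2. Against the LAO1 knockout the count was 1, Upp1, with a trend, without dim probes, with array weights or without both replicates 2 of the double and the IL4i1 knockout (chosen after seeing the data), and 0 to 2 leaving out 1 array. Against wild type it was 1 without both replicates 2, and 0 to 1 leaving out 1 array. In the interaction it was 1 with array weights or without both replicates 2, and 0 to 1 leaving out 1 array. In both of the last 2 the gene was Upp1. In either single knockout against wild type it was 0 throughout.

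The differences whose sign changed passed under none of the settings. In the IL4i1 knockout against wild type, Uck2 was 0.11 (quantile), 0.01 (weights) and 0.38 (without both replicates 2), and Nt5e 0.09, 0.13 and 0.13. Nt5e was -0.1 in the LAO1 knockout against wild type (weights). Cda was 0.18 (weights) and 0.1 (without both) in the double knockout relative to the IL4i1 knockout. Without both, Slc29a2 was 0.02 against wild type and 0.07 against the LAO1 knockout, and Uck2 -0.11 in the interaction. Leaving out 1 array gave these ranges in the double knockout against wild type: Nt5e -1.49 to 0.22, Uck2 -0.03 to 0.47, Upp2 -0.05 to 0.23, Slc29a2 -0.55 to 0.02. Against the LAO1 knockout they were Nt5c1a -0.04 to 0.26, Nt5e -1.41 to 0.19, Pnp -0.16 to 0.54, Uck2 -0.16 to 0.32, Slc29a2 -0.51 to 0.07. Against the IL4i1 knockout they were Cda -0.43 to 0.16, Nt5e -1.31 to 0.25, Uck2 -0.10 to 0.70. In the interaction they were Cda -0.17 to 0.42, Nt5e -1.38 to 0.21, Uck2 -0.23 to 0.57. In the LAO1 knockout against wild type they were Ada -0.17 to 0.23, Nt5e -0.69 to 0.64, Uck2 -0.05 to 0.33, Slc28a1 -0.05 to 0.30, Slc28a2 -0.01 to 0.33. In the IL4i1 knockout against wild type they were Ada -0.48 to 0.18, Nt5e -0.75 to 0.57, Uck2 -0.42 to 0.38. The causes were not tested.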
